A study of Mus musculus with 24 samples.

Results

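The comparison described here sets the livers of mice fed partially hydrogenated soy oil (the Trans diet) against those of mice fed cocoa butter (the Saturated diet), across all genes on the array. Its members are the 8 arrays titled as trans-unsaturated fat and the 8 titled as saturated fat, 16 of the 24 livers in the series. The other 8 livers, from mice fed canola and palm olein oil (the Cis diet), entered the fit and serve as a point of reference. All mice were male and pure-bred on a C57BL/6J background, were 4 to 6 months old and were assigned to a diet at random. Each diet supplied 45% of its energy as fat and was fed for 7 weeks. The diets differed in the whole fat source, and hence in more than trans double bonds. The comparison addresses which liver genes differ between an industrial trans fat and a saturated fat, beyond cholesterol synthesis, collagen and fatty acid oxidation.

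Dietary fatty acids reach the liver in lipoprotein remnants and as free acids released by adipose tissue. In hepatocytes they are oxidized, built into phospholipids and triglycerides, stored in droplets coated by perilipins and CIDE proteins, or exported in very low-density lipoprotein. They also act as ligands of PPARα, a nuclear receptor that induces genes of fatty acid use and storage. Stressed hepatocytes alter their keratin filaments, and the macrophages and stellate cells beside them can become activated.

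Expression was read on Affymetrix Mouse Gene 1.1 ST arrays, with 1 array for each mouse. The values are on the log2 scale after RMA, and a difference between diets is a difference of log2 signal. The table holds 35556 probe sets, of which 21218 name a single gene, and these cover 18820 genes. A mean signal over 20 on the linear scale was reached by 8298 genes. Array medians lay between 2.94 and 3.06, and Trans replicate 4 correlated least with the other arrays, with a median of 0.975. The 14 hepatocyte markers had mean log2 values between 10.08 and 12.98. Saturated replicate 2 stood apart from the other 7 Saturated livers in several genes named below, and results are therefore given with and without it. The word "called" is kept for an adjusted p under 0.05 in limma (two-sided, Benjamini-Hochberg over all probe sets).

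Over all 24 livers, 3 genes were called between Trans and Saturated. Krt23, a type I keratin, was 3.47-fold higher in Trans. Pla2g6, a calcium-independent phospholipase A2 that cleaves fatty acids from membrane phospholipids, was 1.41-fold higher. Urad, the enzyme of the last step from urate to allantoin, was 1.69-fold lower. The 2 probe sets called higher are 0.00562% of those tested and the 1 called lower is 0.00281%. At an unadjusted p under 0.05, 857 genes were higher in Trans (4.55% of all genes) and 711 were lower (3.78%). A fold over 1.5 was seen for 45 genes with the higher mean in Trans and for 44 with the lower.

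**Figure D1:**
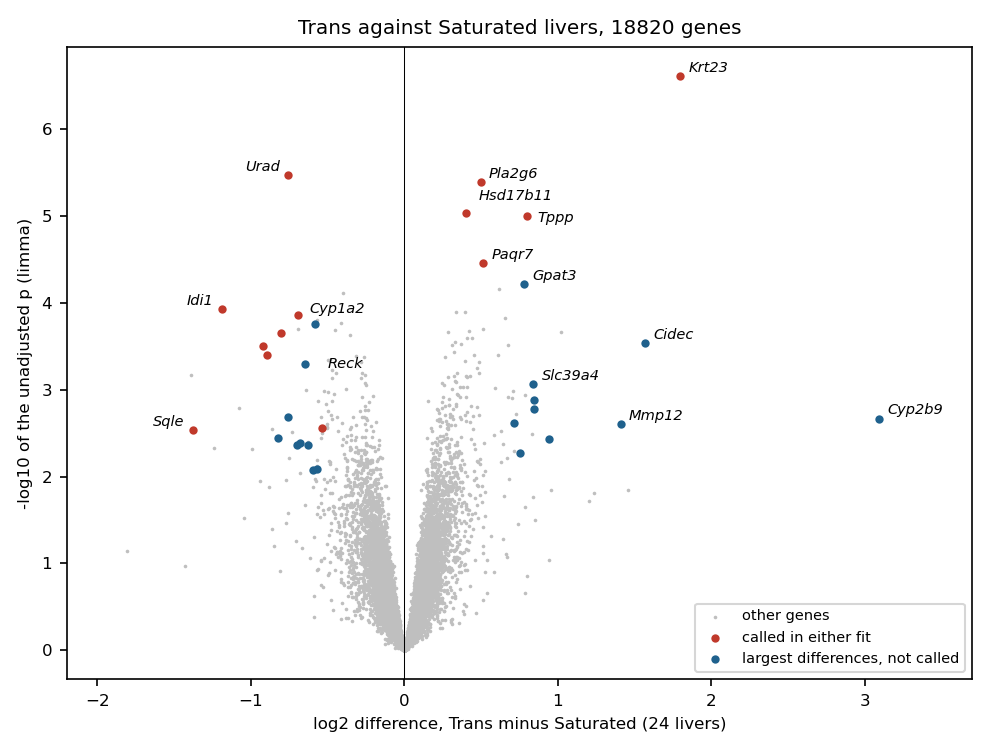
Each point is 1 of the 18820 genes, with the log2 difference between Trans and Saturated livers (24 livers) on the x axis and the -log10 of the unadjusted limma p on the y axis. Red points were called in the fit of 24 livers or in the fit without Saturated replicate 2, and blue points are the largest differences that were not called. Krt23 lies at the top with a difference of 1.80, and Cyp2b9 farthest to the right with 3.09.

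Krt23 is expressed at a low level in these livers, with a mean signal of 17.2. In the 8 Trans livers its log2 value ran from 4.39 to 5.54, with a median of 5.17. In the 8 Saturated livers it ran from 2.22 to 4.77, with a median of 3.18. Only Saturated replicate 2, at 4.77, reached into the Trans range, and the other 7 Saturated livers lay at or below 3.58. The log2 difference was 1.80 (standard error 0.25, adjusted p = 0.00867, limma), and 2.01 (standard error 0.20, adjusted p = 3.27e-05) without Saturated replicate 2. The call held whichever of the 16 livers was left out, with differences between 1.65 and 2.01. It did not hold with the spread taken from the 16 Trans and Saturated livers alone (adjusted p = 0.107) or in Tukey's test over the 3 diets (Benjamini-Hochberg adjusted p = 0.112). The Cis livers lay between 3.43 and 4.33, with a median of 4.02.

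Pla2g6 separated the diets completely. Its log2 values lay between 6.85 and 7.33 in Trans (median 7.15) and between 6.42 and 6.83 in Saturated (median 6.65). The difference was 0.50 (standard error 0.08, adjusted p = 0.049, limma), and 0.50 again without Saturated replicate 2 (adjusted p = 0.0304). Urad separated them too, in the other direction. Its values lay between 8.54 and 9.45 in Trans (median 8.98) and between 9.57 and 9.96 in Saturated (median 9.82). Urad fell by 0.76 on the log2 scale (standard error 0.13, adjusted p = 0.049), and by 0.77 without Saturated replicate 2 (adjusted p = 0.025). Both calls sat at the threshold. Of the 16 fits that left out a Trans or Saturated liver, Pla2g6 was called in 3 and Urad in 4, with adjusted p up to 0.176 for either gene. The Cis livers overlapped both the Trans and the Saturated range in both genes.

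The stretches before the RefSeq starts of the 3 called genes are shown so that a reader can place them in the genome (GRCm38.p6, RefSeq, 250 bases, written 5′ to 3′ on the strand of the gene). Capitals mark the E box CACGTG and the CCAAT box CCAAT, each searched on both strands. Krt23 is on the minus strand of chromosome 11 (chr11:99493121-99493370), Pla2g6 on the minus strand of chromosome 15 (chr15:79328372-79328621) and Urad on the minus strand of chromosome 5 (chr5:147322441-147322690).
Krt23: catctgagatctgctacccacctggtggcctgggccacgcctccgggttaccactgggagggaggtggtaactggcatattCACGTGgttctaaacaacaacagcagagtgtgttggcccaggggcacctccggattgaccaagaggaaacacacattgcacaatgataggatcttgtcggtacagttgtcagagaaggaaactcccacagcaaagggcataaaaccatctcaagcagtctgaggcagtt
Pla2g6: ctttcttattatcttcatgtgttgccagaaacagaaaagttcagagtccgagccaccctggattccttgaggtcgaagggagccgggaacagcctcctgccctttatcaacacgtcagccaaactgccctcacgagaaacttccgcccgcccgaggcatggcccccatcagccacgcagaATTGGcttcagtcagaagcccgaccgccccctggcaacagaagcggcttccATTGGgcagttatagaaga
Urad: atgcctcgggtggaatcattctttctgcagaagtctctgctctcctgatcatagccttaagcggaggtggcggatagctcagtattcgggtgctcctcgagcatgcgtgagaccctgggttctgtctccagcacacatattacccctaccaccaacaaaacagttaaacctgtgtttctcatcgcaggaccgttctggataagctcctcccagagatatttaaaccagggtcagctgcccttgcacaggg
The Krt23 window holds 1 E box and the Pla2g6 window 2 CCAAT boxes on the opposite strand, while the Urad window holds neither. Of 32851 windows of this length before RefSeq starts, 6.02% hold an E box and 33.8% a CCAAT box. The motifs in capitals here and further on were chosen after the sequences and the expression values had been seen, so the matches are a description and no more. In all 6 motifs were searched in the 5 windows printed. The DR1 element of nuclear receptors, the sterol response element (TCACNCCAC) and the TATA box (TATAAA), which had been considered first, are in none of the 5, and in 0.0335%, 1.05% and 12.4% of all windows. A missing match says only that these letters are not in the window.

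Without Saturated replicate 2, 16 probe sets were called, 6 of them higher in Trans (0.0169%) and 10 lower (0.0281%). They name 13 genes, 5 that rose and 8 that fell, and 2 of the probe sets have no single gene. The 3 genes called over all livers were called here as well. Genes at an unadjusted p under 0.05 numbered 939 higher (4.99%) and 774 lower (4.11%). The further genes that rose were Tppp, a tubulin polymerization-promoting protein, Paqr7, a membrane progestin receptor, and Hsd17b11, a dehydrogenase that sits on lipid droplets. The further genes that fell were Zfand4, a zinc finger protein, and 6 enzymes of cholesterol synthesis, namely Idi1, Fdft1, Sqle, Tm7sf2, Cyp51 and Msmo1.

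Tppp values were 4.41 to 5.12 in Trans (median 4.59) and 3.52 to 4.38 in Saturated (median 3.80), with no overlap. Its difference was 0.80 over 24 livers (adjusted p = 0.0714, limma) and 0.86 without Saturated replicate 2 (adjusted p = 0.0196). Hsd17b11 values were 9.25 to 9.64 in Trans (median 9.44) and 8.83 to 9.33 in Saturated (median 8.96). Its difference was 0.41 over 24 livers (adjusted p = 0.0714) and 0.45 without Saturated replicate 2 (adjusted p = 0.00973). Paqr7 values were 6.32 to 7.16 in Trans (median 6.72) and 5.97 to 6.52 in Saturated (median 6.23). Its difference was 0.51 (adjusted p = 0.178) and then 0.56 (adjusted p = 0.0391). In Tppp, Paqr7, Hsd17b11 and Krt23 alike, Saturated replicate 2 was the highest Saturated liver.

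Zfand4 lay between 4.52 and 5.40 in Trans (median 4.94) and between 4.53 and 5.91 in Saturated (median 5.60). Saturated replicate 2 held the lowest Saturated value, 4.53, and the next was 5.505. The difference was -0.54 (adjusted p = 0.396, limma) over 24 livers and -0.68 (adjusted p = 0.0452) without it. The cholesterol enzymes shared this layout. Each of the 17 measured members of the pathway was lower on average in Trans. The median log2 difference was -0.73 over all livers and -0.91 without Saturated replicate 2, and all 17 were at an unadjusted p under 0.05 in both fits.

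**Figure D2:**
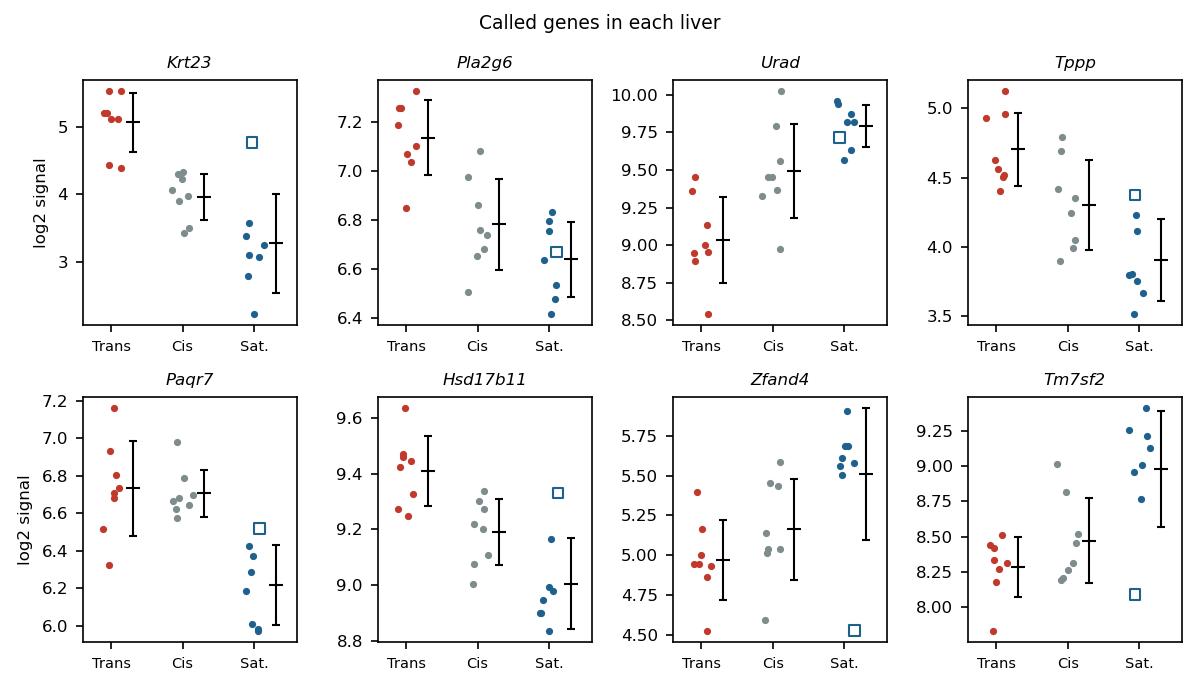
Log2 signal of 8 called genes in each of the 24 livers, by diet, with the mean and SD of each diet beside the points. The open square is Saturated replicate 2, which lies at 4.77 in Krt23 against at most 3.58 in the other Saturated livers, and at 4.53 in Zfand4 against at least 5.505. The 8 Trans livers lie above all Saturated livers in Pla2g6 and Tppp and below them in Urad.

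Complete separation of the diets was rare across the array. The 8 Trans values all lay above the 8 Saturated values in 10 genes (0.0531%) and all below them in 4 genes (0.0213%). Pla2g6 and Tppp were among the 10. The 4 were Urad, Igkv6-23, Atxn2l and Dusp7, the last 3 of which were named after their values were seen. Without Saturated replicate 2, separation was seen in 21 genes upward (0.112%) and in 21 downward (0.112%). Separation and a call are different things, since the test also weighs the spread.

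The largest differences that were not called over 24 livers are described next, as genes with a mean signal over 20 and an unadjusted p under 0.01 outside cholesterol synthesis, collagen and mitochondrial oxidation. There were 148 such genes with the higher mean in Trans and 122 with the lower, and the 10 largest on either side were taken. Urad, described above, is 1 of the 10 lower genes, and the others were called in neither fit. The largest difference was that of Cyp2b9, a cytochrome P450 expressed mainly in female liver and inducible in males. Its log2 value lay between 7.35 and 10.41 in Trans (median 9.24) but between 2.37 and 9.83 in Saturated (median 5.65). In Saturated, 5 livers lay below every Trans liver and 3 lay at 8.34, 8.78 and 9.83. The difference was 3.09 (standard error 0.90, adjusted p = 0.374, limma).

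Cidec and Gpat3 both belong to triglyceride storage. Cidec, which drives fusion of lipid droplets, lay between 5.85 and 7.76 in Trans (median 6.70) and between 3.27 and 6.21 in Saturated (median 5.20), a difference of 1.57 (standard error 0.37, adjusted p = 0.219, limma). Gpat3, which adds the first fatty acid to glycerol 3-phosphate, lay between 4.70 and 5.61 in Trans (median 5.04) and between 3.65 and 4.99 in Saturated (median 4.38). Its difference was 0.78 (unadjusted p = 6.14e-05, adjusted p = 0.198). Only Saturated replicate 1, at 4.99, reached into the Trans range.

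Mmp12, the macrophage elastase, lay between 3.64 and 6.69 in Trans (median 5.49) and between 2.90 and 4.36 in Saturated (median 3.87). In Trans, 5 livers were above all Saturated livers and 3 lay among them. Its difference was 1.41 (standard error 0.42, adjusted p = 0.387, limma). Slc39a4, a zinc importer, was tightly grouped in Trans at 6.47 to 7.10 (median 6.78) and spread over 5.10 to 6.72 in Saturated (median 5.94), a difference of 0.84 (adjusted p = 0.308). Osbpl3, an oxysterol-binding protein relative, differed by 0.84 (adjusted p = 0.347), and its Cis mean of 5.23 was that of the Saturated livers. That Saturated mean includes Saturated replicate 3 at 3.861, with the next liver at 4.971. Anxa2 (0.85), S100a11 (0.72) and Lgals1 (0.76), which encode an annexin, an S100 calcium-binding protein and galectin-1, and Ifi27l2b (0.95), of an interferon-inducible family, complete the 10. Their adjusted p lay between 0.365 and 0.474. In 7 of these 10 genes the highest Trans value came from Trans replicate 1, and without it the differences of Anxa2, S100a11 and Ifi27l2b were 0.69, 0.57 and 0.765.

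Among the genes with the lower mean, Cyp1a2, a P450 of the pericentral zone that metabolizes caffeine, had values between 9.58 and 10.58 in Trans (median 9.98) and between 10.36 and 11.11 in Saturated (median 10.53). Of the 8 Trans livers 6 were below all Saturated livers, and the difference was -0.58 (standard error 0.13, adjusted p = 0.202, limma). Egfr, the receptor of epidermal growth factor, lay between 8.54 and 9.69 in Trans (median 9.17) and between 8.98 and 10.80 in Saturated (median 9.84), a difference of -0.76 (adjusted p = 0.372). Reck, an inhibitor of matrix metalloproteinases, had a difference of -0.65 (adjusted p = 0.266).

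Enzymes of the retinoid, tryptophan, ethanolamine and glucose pathways were in the same group. Rdh11, a retinal reductase, had a difference of -0.83 over 24 livers and -1.01 without Saturated replicate 2, the lowest Saturated liver at 6.53. Acmsd, which diverts tryptophan breakdown away from NAD synthesis, had a difference of -0.70. Etnppl, which degrades phosphoethanolamine, had one of -0.63. G6pc, the glucose 6-phosphatase that releases glucose, lay between 9.37 and 10.22 in Trans (median 9.74) and between 9.48 and 10.71 in Saturated (median 10.47), where the lowest value again belonged to Saturated replicate 2. Its difference was -0.57 (adjusted p = 0.506, limma), and -0.69 without that liver. The small membrane protein Pdzk1ip1 (-0.59) and Gm4956 (-0.68) complete the 10.

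**Figure D3:**
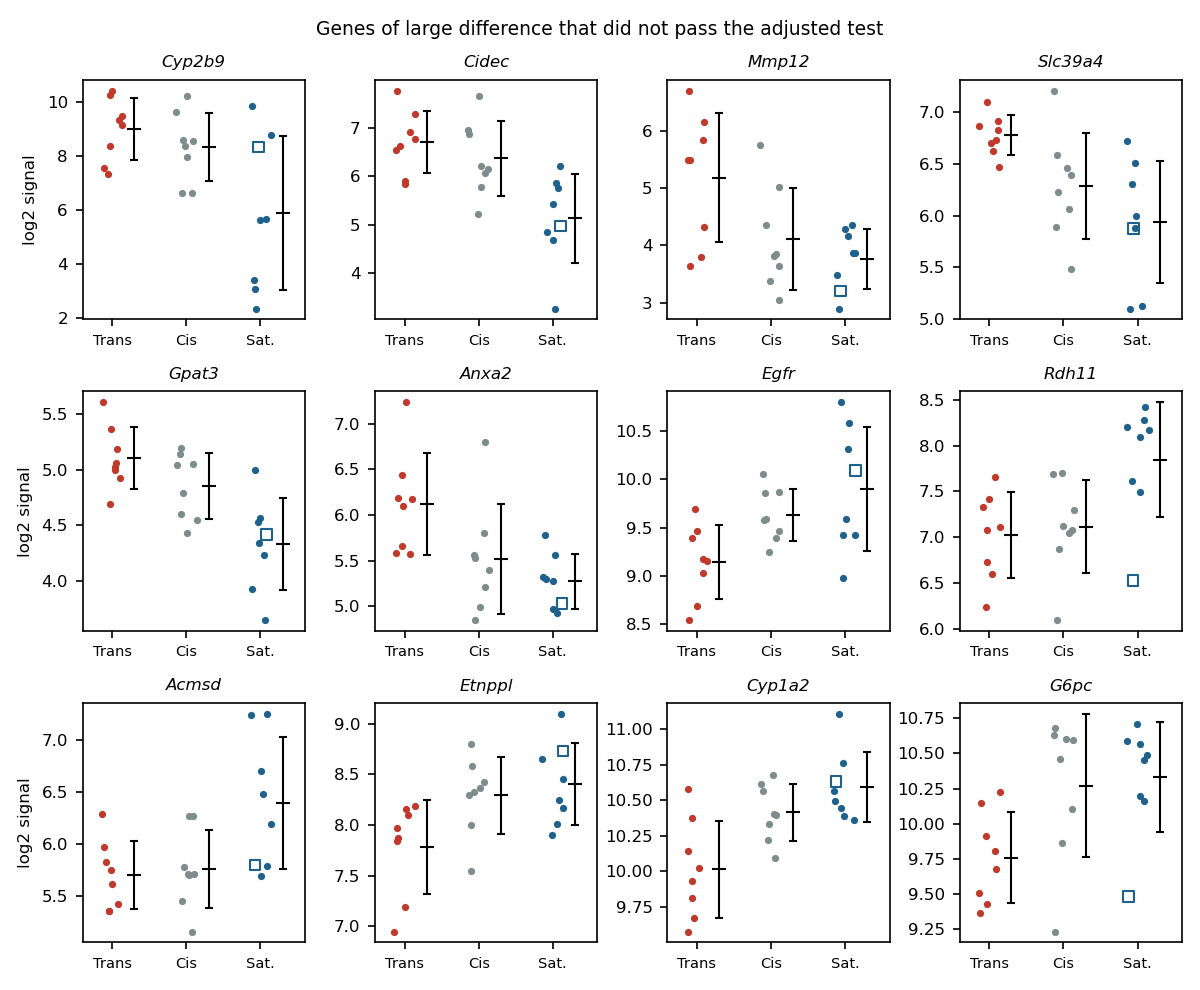
Log2 signal in each liver of 12 genes with large differences that were not called, by diet, with the mean and SD beside the points and Saturated replicate 2 as an open square. Cyp2b9 spans 2.37 to 9.83 within the Saturated livers alone. Cyp1a2 is low in 6 Trans livers, and in Rdh11 and G6pc the open square is the lowest Saturated value.

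**Figure D4:**
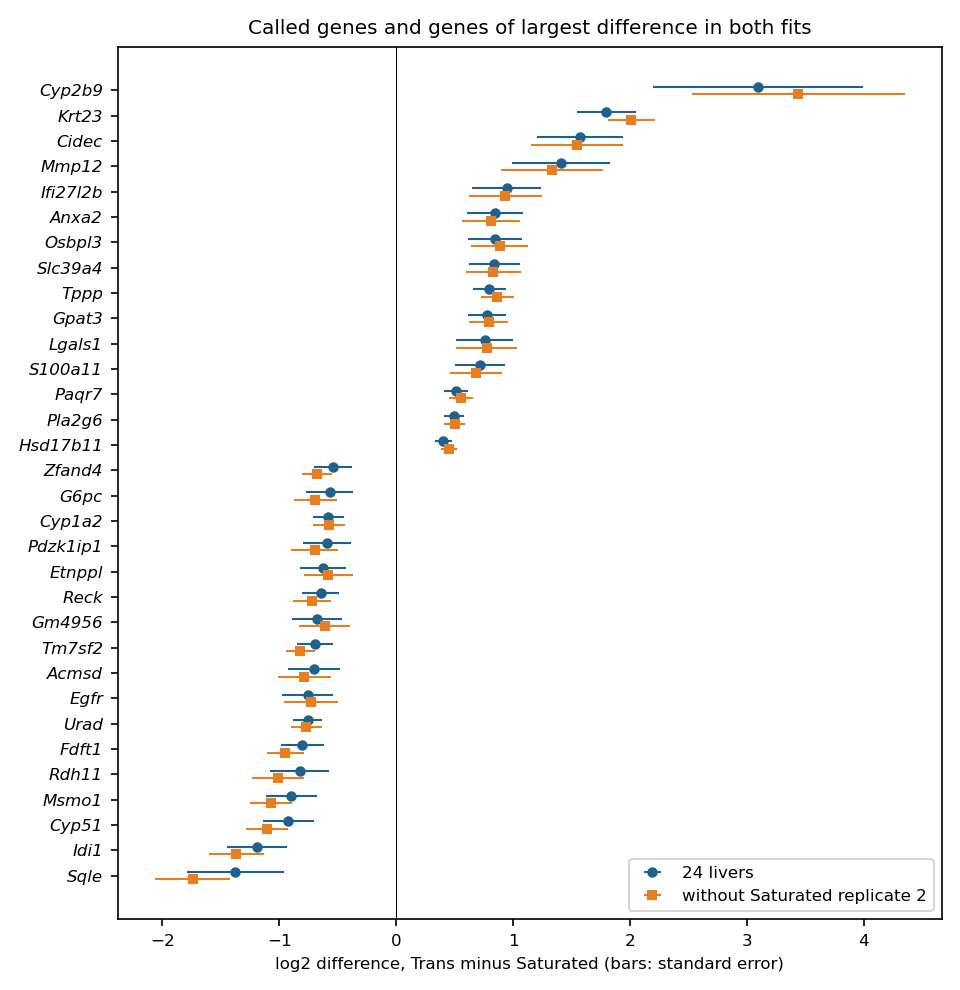
Log2 difference between Trans and Saturated (x axis, with standard error bars) for 32 genes, over 24 livers (circles) and without Saturated replicate 2 (squares). The difference of Krt23 is 1.80 and 2.01, and that of Sqle -1.37 and -1.74. No gene drawn changes its direction.

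The gene lists that follow are described by counts and by the median log2 difference of their members, beside 9705 of 18820 genes with a higher mean in Trans and a median of 0.00 over all genes. Unless a gene is said to be called, it did not pass the adjusted test. The medians of 9 of the 54 lists moved by less than 1.5 times whichever of the 16 livers was left out. They are cholesterol synthesis, mitochondrial and peroxisomal oxidation, PPARα and LXR targets, complement, the unfolded protein response, the IGF axis and the proteasome. Of 32 lists with a median within 0.1 of 0, 31 moved by more than that or turned. In whole liver, fewer cells of a type and less RNA per cell cannot be told apart.

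Of 18 PPARα targets outside oxidation, 16 were higher on average in Trans, at a median of 0.28 (0.30 without Saturated replicate 2), and 9 were at an unadjusted p under 0.05, all of them higher. Vnn1, a pantetheinase, lay between 8.22 and 9.20 in Trans (median 8.68) and between 7.52 and 8.52 in Saturated (median 8.19), a difference of 0.61 (adjusted p = 0.254, limma). Mgll, the monoglyceride lipase, differed by 0.31 (adjusted p = 0.319). The other 2 members had a lower mean, the hormone gene Fgf21 at -0.57 and the lipase inhibitor Angptl4 at -0.04. Angptl4 turned to 0.11 without Saturated replicate 2 and to 0.378 without Trans replicate 1. Of 15 lipid droplet genes, a list that shares Cidec with the PPARα targets, 13 had a higher mean in Trans but the median was 0.08, with 4 at an unadjusted p under 0.05. The median was 0.132, 0.139 and 0.128 without Trans replicates 2, 3 and 8, and 0.138 without Saturated replicate 1. Cidec and Hsd17b11 were among the 4, as was the perilipin Plin4 (0.78, unadjusted p = 0.0225). Peroxisomal oxidation had 9 of 12 members higher, with Acaa1b, the peroxisomal thiolase, at 0.31 (unadjusted p = 0.000307). The 16 mitochondrial oxidation genes were all higher on average, at a median of 0.13.

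Of 17 genes of fatty acid synthesis, 13 were lower on average in Trans, at a median of -0.15 that was -0.32 without Saturated replicate 2, -0.306 without Saturated replicate 6, -0.0882 without Trans replicate 4 and -0.0744 without Saturated replicate 8. None was at an unadjusted p under 0.05 over 24 livers, and 5 were without that liver, all lower. Acss2, Elovl6 and Acly had differences of -0.48, -0.54 and -0.49, and of -0.363, -0.357 and -0.34 without Saturated replicate 8, whereas Srebf1, the regulator of the pathway, was at 0.33 (unadjusted p = 0.135). In the phospholipid remodelling list 14 of 24 genes had a higher mean, and Pla2g6 was its one called gene. Agpat3, an acyltransferase, was at 0.15 and Pnpla6, a lysophospholipase, at -0.22. The cholesterol exporters Abcg8 and Abcg5 were at 0.40 and 0.34 (unadjusted p = 0.0342 and 0.0473), within a list of LXR targets in which 9 of 10 genes were higher and Cyp7a1, the first enzyme of bile acid synthesis, was lower at -0.49.

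Krt8, the partner of Krt18 in hepatocyte filaments, lay between 8.67 and 9.64 in Trans (median 8.99) and between 8.18 and 8.69 in Saturated (median 8.38). Only the lowest Trans liver, at 8.67, lay inside the Saturated range. The difference was 0.62 (standard error 0.13, unadjusted p = 6.98e-05, adjusted p = 0.198, limma). Krt18 lay between 8.47 and 9.32 in Trans (median 8.76) and between 8.14 and 8.61 in Saturated (median 8.36), a difference of 0.44 (adjusted p = 0.363). In the list of 14 cytoskeleton and keratin genes, which includes the called gene Krt23, 11 were higher. The list median was 0.08, and 0.06 without Saturated replicate 2. The mean of the list was above the Saturated mean in 8 of 8 Trans livers, but Krt23 weighs on that mean. Without Saturated replicate 2, 8 of the 14 were higher. The cholangiocyte keratins Krt7 and Krt19, the latter named after its values were seen, had mean signals of 8.30 and 6.62, and 3 of the 6 cholangiocyte markers were higher.

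Metallothioneins bind zinc and copper and are induced by metals and by glucocorticoids. Mt2 lay between 5.07 and 8.58 in Trans (median 7.32) and between 4.59 and 7.03 in Saturated (median 6.20), a difference of 1.20 (standard error 0.48, adjusted p = 0.605, limma). Mt1 lay between 6.61 and 9.43 in Trans (median 8.64) and between 6.25 and 8.51 in Saturated (median 7.67), a difference of 0.85 (standard error 0.37, adjusted p = 0.631). In both genes the ranges overlapped widely, and Trans replicate 3 was the lowest Trans liver. With Slc39a4 they were the 3 of 8 genes in the list at an unadjusted p under 0.05. Of the 8 genes 5 were higher, at a list median of 0.02 that turned to -0.00838 without Trans replicate 1. The stretches before both starts are shown because the metal response element is a known feature of these genes, a choice also made after their values were seen (RefSeq, GRCm38.p6, plus strand of chromosome 8, chr8:94178839-94179088 for Mt1 and chr8:94172368-94172617 for Mt2). Capitals mark matches to TGCNCNC on either strand, the pattern searched for the metal response element. N stands for any base, so the pattern is looser than the element and a match need not be one.
Mt1: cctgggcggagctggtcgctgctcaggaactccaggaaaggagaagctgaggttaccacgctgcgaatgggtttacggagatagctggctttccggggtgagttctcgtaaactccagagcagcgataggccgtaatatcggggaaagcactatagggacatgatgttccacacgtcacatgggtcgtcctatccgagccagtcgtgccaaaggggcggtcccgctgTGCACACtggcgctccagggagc
Mt2: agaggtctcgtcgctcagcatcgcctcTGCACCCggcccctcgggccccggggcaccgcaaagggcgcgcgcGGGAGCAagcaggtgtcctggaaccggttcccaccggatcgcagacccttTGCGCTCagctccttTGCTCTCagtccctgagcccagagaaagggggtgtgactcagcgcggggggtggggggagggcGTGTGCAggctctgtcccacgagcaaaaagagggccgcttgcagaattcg
The Mt1 window holds 1 such match and the Mt2 window 5. At least 1 is found in 44.4% of the 32851 windows, and 5 or more in 0.344%. The Pla2g6 and Urad windows hold 1 each.

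Cyp3a11, the major drug-metabolizing P450 of mouse liver and a target of PXR, lay between 10.46 and 10.96 in Trans (median 10.72) and between 10.03 and 10.53 in Saturated (median 10.28), a difference of 0.39 (standard error 0.10, adjusted p = 0.26, limma). Cyp2c70, which makes muricholic acids in the mouse, was at -0.47 (adjusted p = 0.374). Of 30 enzymes of the CYP2 and CYP3 families 18 were higher, at a median of 0.04. At an unadjusted p under 0.05, 6 were higher and 2 lower. The list mean was above the Saturated mean in all 8 Trans livers, by 0.151 on average. Cyp2b9, a CYP2 enzyme with a difference of 3.09, weighs on that mean more than on the median. The list of CAR and PXR targets had 8 of 12 higher, with a median of 0.19 that was 0.122 without Trans replicate 1, with Abcc3, an exporter of conjugates into blood, at 0.41 (adjusted p = 0.311). Among bile acid genes 13 of 18 were lower, including Cyp27a1 at -0.25 and the uptake carrier Slc10a1 at -0.21. Of sulfation, glucuronidation and other conjugation genes 14 of 30 were higher, with Sult1a1 at -0.23, and 16 of 30 were without Saturated replicate 2. Of NRF2 targets 14 of 19 were higher, and 11 of 19 without Saturated replicate 2.

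Many liver genes differ between males and females under the control of growth hormone. Of 19 male-biased genes 17 were lower on average in Trans, at a median of -0.24, but only 2 were at an unadjusted p under 0.05 and none without Saturated replicate 2. The list median was -0.144 without Trans replicate 1, -0.15 without Saturated replicate 4 and -0.143 without Saturated replicate 6. Hsd3b5, a steroid reductase, ranged from 2.08 to 8.19 in Trans (median 5.45) and from 5.10 to 9.02 in Saturated (median 7.69), a difference of -1.80 (standard error 0.96, unadjusted p = 0.0716). Slco1a1, an organic anion transporter, was at -0.86 (unadjusted p = 0.0399), and at -0.46 without Trans replicate 1, its lowest liver at 5.83. Keg1 was at -0.48. Among female-biased genes 9 of 16 were higher, with Cyp2b9 first and Cyp17a1 at -0.71.

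Of secreted factors of the IGF axis and other hepatokines, 16 of 20 were lower on average in Trans, at a median of -0.15 and 7 at an unadjusted p under 0.05. The list mean of all 8 Trans livers lay below the Saturated mean. Fetub, a fetuin, lay between 9.38 and 9.68 in Trans (median 9.53) and between 9.47 and 9.94 in Saturated (median 9.88), a difference of -0.28 (standard error 0.07, adjusted p = 0.281, limma). Inhba, an activin subunit, was at -0.57 and Angptl8, an insulin-responsive inhibitor of lipoprotein lipase, at -0.88 (adjusted p = 0.554). Inhbe, another activin subunit, was 1 of 4 genes with a higher mean, at 0.41.

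Glucose is produced mainly in the periportal zone of the liver. Of 14 periportal genes 12 were lower on average in Trans, at a median of -0.14 and 5 at an unadjusted p under 0.05, and the list mean was below the Saturated mean in all 8 Trans livers. Without Saturated replicate 2 the median was -0.0905, with 4 at an unadjusted p under 0.05. Fbp1, fructose bisphosphatase, was at -0.17 (unadjusted p = 0.00624), and Asl, of the urea cycle, at -0.30 (unadjusted p = 0.00685). Of 20 genes of glucose metabolism 15 were lower, at a median of -0.104 that was -0.158 without Saturated replicate 2. In this list Ppp1r3b, which targets phosphatase to glycogen, was at -0.60. Pericentral genes had 12 of 17 higher, with Cyp1a2 as the 1 gene at an unadjusted p under 0.05, and lower. Among 32 genes of amino acid breakdown 20 were lower, with Got1, aspartate aminotransferase, at -0.54 (unadjusted p = 0.00204). Without Saturated replicate 2, 17 of the 32 were lower, and the list median went from -0.03 to -0.01. Gnmt, which disposes of surplus methyl groups, was at -0.28 (unadjusted p = 0.000486) in a list of 17 methionine and one-carbon genes with 12 lower. In purine and urate breakdown Urad was the one called gene of 10, and 6 were lower.

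The unfolded protein response adjusts protein folding in the endoplasmic reticulum. Of its 22 genes 17 were lower on average, at a median of -0.12 and 5 at an unadjusted p under 0.05, and 6 without Saturated replicate 2. Ern1, the sensor IRE1, lay between 6.30 and 6.79 in Trans (median 6.69) and between 6.72 and 7.24 in Saturated (median 7.08). Its difference was -0.40 (standard error 0.08, unadjusted p = 7.79e-05, adjusted p = 0.198, limma). Atf4, a transcription factor of the response, was at -0.33 over 24 livers and -0.41 without Saturated replicate 2, and the chaperone partner Dnajb9 at -0.38 and then -0.47. The stress genes Atf3 and Trib3 went the other way, at 0.39 and 0.40. Proteasome subunits had a higher mean in 20 of 22, with a median of 0.07 and Psma1 at 0.14. Ribosome biogenesis had 12 of 20 lower, with Nop58 at -0.39.

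Of 25 acute phase genes 17 were higher, at a median of 0.02, with the lipopolysaccharide-binding protein Lbp at 0.38 and Saa4 at 0.22. At an unadjusted p under 0.05, 6 were higher (7 without Saturated replicate 2) and 1 lower. The lower gene was the inducible serum amyloid Saa3, at -0.46 (unadjusted p = 0.0102). Of 25 interferon-response genes 19 were lower, with a median of -0.14 and 6 at an unadjusted p under 0.05, all lower, among them Ifit2 (-0.37) and the guanylate-binding proteins Gbp7 (-0.33) and Gbp3 (-0.32). The list median was -0.0884 without Trans replicate 2. Antigen presentation had 11 of 14 lower, with Psmb8, an immunoproteasome subunit, at -0.24, and 8 of 14 without Saturated replicate 2. Complement had 17 of 19 lower, with C8b at -0.57, and coagulation 15 of 20, with differences of -0.12 for Serpind1 and -0.11 for antithrombin (Serpinc1).

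Hepatocyte markers were lower in 13 of 14, with a median of -0.05 (-0.033 without Trans replicate 4 and -0.0318 without Saturated replicate 6). Kupffer cell markers were lower in 9 of 10, with a median of -0.23 that was -0.137 without Saturated replicate 6, the highest Saturated liver of the list. Cd163, a scavenger receptor of resident macrophages, lay between 4.20 and 5.07 in Trans (median 4.88) and between 4.51 and 5.52 in Saturated (median 5.34), a difference of -0.49 (unadjusted p = 0.00657). Timd4 was at -0.45. The Kupffer list mean, relative to the Saturated mean, lay between -0.74 and 0.27 in Trans and between -0.58 and 0.50 in Saturated, so the diets overlapped. Of 8 markers of recruited macrophages 6 were higher, Gpnmb the most at 0.51 (unadjusted p = 0.063), with its highest Trans value, 3.84, in Trans replicate 1, and the list median of 0.11 was 0.0239 without that liver.

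Quiescent stellate cell markers were lower in 7 of 9, Colec11 at -0.25 (unadjusted p = 0.000685) and Lrat, which stores retinoids, at -0.25. Markers of activated stellate cells and matrix were higher in 10 of 10, with a median of 0.12, and in 9 of 10 without Saturated replicate 2. Acta2, smooth muscle actin, lay between 4.09 and 6.84 in Trans (median 4.72) and between 3.41 and 4.72 in Saturated (median 4.36), a difference of 0.96 (unadjusted p = 0.0142) that was 0.72 without Trans replicate 1. Its highest values were 6.84 and 6.80, in Trans replicates 1 and 4. All 7 smooth muscle markers were higher, with a median of 0.39, and none had a mean signal over 20. Without Trans replicate 1 the medians of the activated stellate and smooth muscle lists were 0.075 and 0.256. The activated stellate median was 0.0757 without Saturated replicate 3 and 0.218 without Saturated replicate 8. The adipocyte markers were low, at mean log2 values of 2.18 to 2.63, with 4 of 4 higher. Their list mean was 0.92 above the Saturated mean in Trans replicate 4 and at most 0.43 in the other Trans livers, and the list median of 0.135 was 0.0596 without Trans replicate 4. The part of admixed tissue in these stromal differences was not tested. All 15 collagen genes were higher, with a median of 0.23 that was 0.144 without Trans replicate 4, and 14 of 15 were higher without Saturated replicate 2. Endothelial markers were higher in 9 of 12, led by Clec4g at 0.20, lymphocyte markers lower in 8 of 9 and neutrophil markers lower in 4 of 6, with Csf3r at -0.51 (unadjusted p = 0.00145). The neutrophil list mean was 1.03 in Saturated replicate 8 and below 0 in the other 7 Saturated livers, and the list median turned from -0.04 to 0.109 without that liver.

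Higher means were found for 6 of 12 desaturases and elongases, 6 of 16 lipoprotein genes, 3 of 5 AhR targets, 8 of 17 clock genes and 10 of 21 genes of heme and iron. They were found for 18 of 30 respiratory chain genes, 12 of 23 nuclear receptors and liver transcription factors, and 15 of 22 cell cycle genes, the last with 4 genes over a signal of 20. The cell cycle median was 0.11, and 0.0474 without Trans replicate 1, 0.0616 without Saturated replicate 2 and 0.0698 without Saturated replicate 3. Markers of exocrine pancreas and striated muscle were higher in 2 of 4 and 4 of 5.

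**Figure D5:**
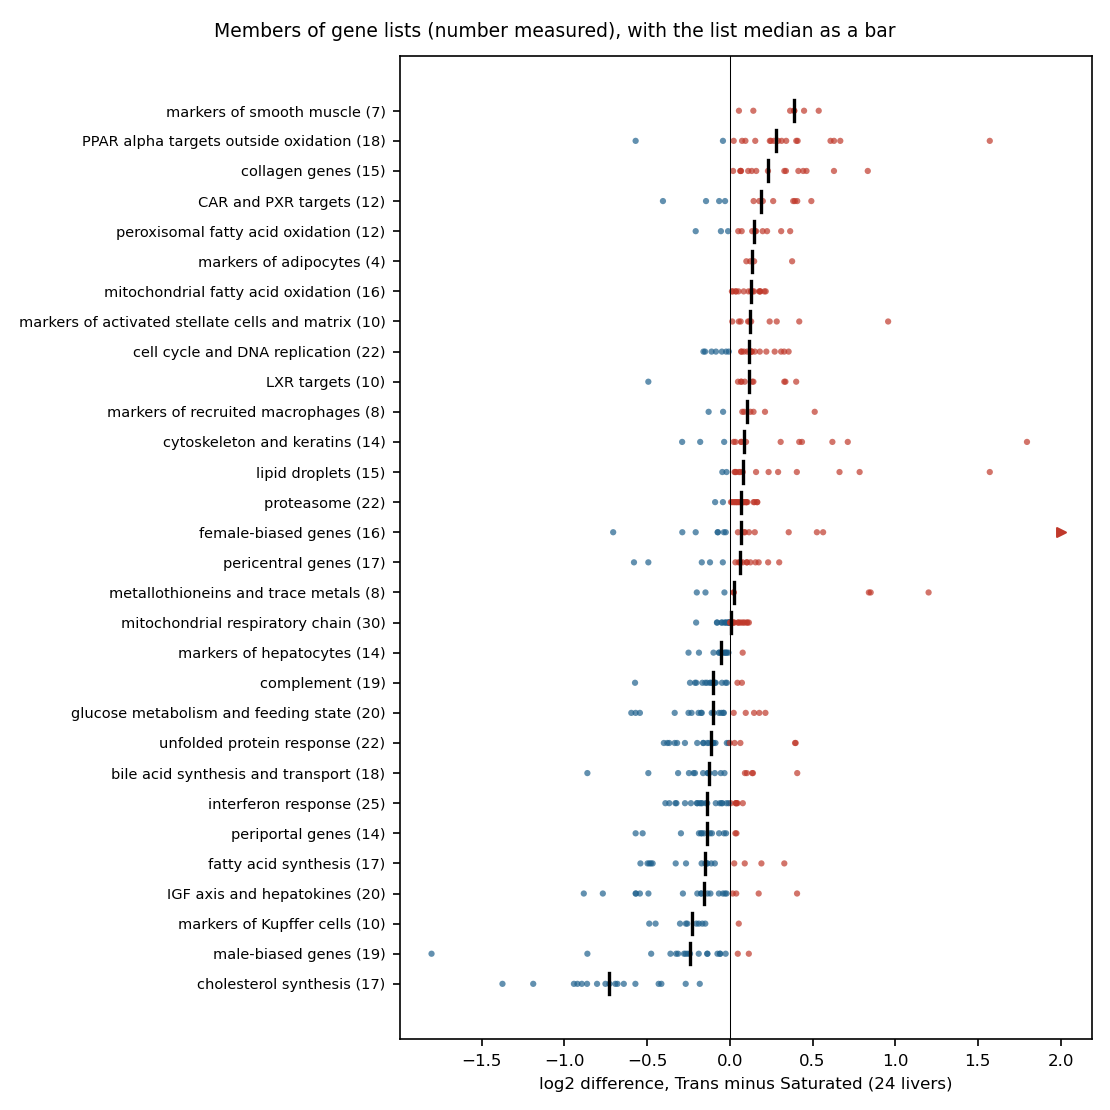
Log2 difference between Trans and Saturated (x axis, 24 livers) of each measured member of 30 gene lists, red where the mean was higher in Trans and blue where lower, with the list median as a black bar. The arrow at the right edge is Cyp2b9, which lies past the axis at 3.09. Cholesterol synthesis lies lowest with a median of -0.73, followed by the male-biased genes and the Kupffer cell markers.

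Between Trans and Cis 1 of the 35556 probe sets was called by limma, with no single gene to its name, and 2191 were at an unadjusted p under 0.05. Krt23 differed by 1.103 between Trans and Cis (unadjusted p = 0.000207, adjusted p = 0.55), Pla2g6 by 0.35 and Urad by -0.46. For Paqr7 and Lgals1 the Trans and Cis means were within 0.03 of each other. Of the 32 genes called or of largest difference, the Cis mean lay between Trans and Saturated in 31 and nearer to Saturated in 17. The Cyp2b9 means were 8.98 in Trans, 8.32 in Cis and 5.89 in Saturated. Between Trans and Cis the list median was 0.0689 for PPARα targets outside oxidation, 0.0259 for mitochondrial oxidation and -0.185 for cholesterol synthesis. For collagen genes it was 0.225. The 2 comparisons share the Trans livers and are not independent.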

How the data were processed

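RNA from 24 livers, 8 for each of 3 diets, was hybridised to Affymetrix Mouse Gene 1.1 ST arrays. The deposited values are log2 signals, which the authors obtained with RMA in Bioconductor. The study's methods describe probe sets redefined by Entrez gene, whereas the deposited table keeps the 35556 probe sets laid out by Affymetrix. Of these 21218 name a single gene in the platform annotation, 1881 name several and 12457 none. For a gene with several probe sets, the one with the highest mean was used. The number of arrays limits the precision. All 24 columns of values were used.

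A linear model of the 3 diets was fitted to all probe sets with limma 3.58.1 in R 4.3.3 (lmFit and eBayes, 21 residual degrees of freedom), and Trans minus Saturated was tested two-sided with Benjamini-Hochberg adjustment over all probe sets. The fit was repeated without Saturated replicate 2. Script steps were tested on simulated data. Named genes are those called in either fit, the 10 largest differences in each direction with a mean signal over 20 and an unadjusted p under 0.01 outside the cholesterol, collagen and mitochondrial oxidation lists, and in each list up to 3 of smallest p and up to 2 against the rest. The 54 lists hold 857 measured entries. The members, the lists and the emphasis on Saturated replicate 2 were chosen with earlier results of these data known. Same-numbered livers were not taken as pairs. Alternatives covered the fit, the normalization, the test family the methods name (Tukey's test), filters and each liver left out. Promoter windows came from RefSeq (GRCm38.p6), where all 5 genes shown were matched, and were searched with Python for 6 motifs, all settled after the sequences had been seen.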

Additional observations from a re-analysis of the deposited data

Results flagged for a closer look

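For the 32 genes called or of largest difference, the 8 livers of each diet were checked for a value far from the others, by a gap over the range above Dixon's critical value at the 95% level. In all, 8 of the 64 groups were flagged. Chance flags about 1 in 20 groups, but that share does not apply here, since Idi1, Sqle, Cyp51 and Zfand4 are among the 32 only because they were called once Saturated replicate 2 was left out. Saturated replicate 2 was the lowest Saturated liver in 5 of the 8: Idi1 at 7.595 (next 8.737), Sqle at 5.338 (next 7.922), Cyp51 at 7.471 (next 8.644), Zfand4 at 4.525 (next 5.505) and G6pc at 9.482 (next 10.16), all log2 signals. The other flags were Idi1 in Trans replicate 4 at 6.398 (next 7.402), Gm4956 in Trans replicate 1 at 2.746 (next 3.808) and Osbpl3 in Saturated replicate 3 at 3.861 (next 4.971).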

How the results depend on the processing

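The number of calls depended on the setting. Against 2 probe sets called higher and 1 called lower, leaving out a liver gave 1 to 6 higher and 0 to 10 lower. Without Saturated replicate 2 there were 6 and 10, and without Saturated replicate 1 there were 5 and 1. Of the 16 livers, 13 left 1 higher and 11 left 0 lower when left out. The 16 Trans and Saturated livers alone gave 0 and 0 (limma, with Krt23 at an adjusted p of 0.107), median centring 1 and 0, a fold over 1.5 as well 1 higher, and adjustment over single-gene probe sets 4 higher. Tukey's test gave 0 and 0. At an unadjusted p under 0.05 it gave 478 higher and 371 lower single-gene probe sets against 930 and 765. With a mean signal over 20 there were 534 higher at that p. This count comes from a smaller set, since 8298 of 18820 genes reach that signal, and is not like the 930. Leaving out a liver gave 812 to 1009 and 666 to 835. Krt23 was called in all 16 of these. Apart from the smaller set under the signal filter, the cause of these shifts was not tested.

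The deviations of same-numbered Trans and Saturated livers correlated weakly (-0.0358 to 0.0539), and 3 of 8 Trans livers matched their own number best. Whether a replicate number stands for anything shared was not tested. With the replicate number as a block, 4 probe sets were called higher and 1 lower. Cidec (adjusted p = 0.0202), Gpat3 (0.0202) and Tppp (0.0223) passed and Pla2g6 (0.116) did not.

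Of 1631 values of named genes under settings other than leaving out a liver, 1612 kept direction and side, 9 became weaker, 5 stronger and 5 reversed. With the 16 livers alone, robust eBayes with a trend, the replicate block or Tukey's test, the differences equal those of the main fit. No direction could change in these settings, so the count of 1612 says little of how firm the directions were. All 9 weaker values were lost calls of Krt23, Pla2g6 and Urad, the genes called over all livers. Each lost its call with the 16 Trans and Saturated livers alone and in Tukey's test. Pla2g6 and Urad also lost it with median centring, and Pla2g6 with the replicate block. The other named genes were not called over all livers, so their keeping a side says nothing of how firm the calls were. With array weights Marco was at -0.0177, S100a8 at -0.0288 and Angptl4 at 0.00195. With quantile normalization again S100a8 was at -0.00164, and with median centring Mylpf was at 0.00635. With 1 liver left out, 16 genes turned direction, none of them called. Their differences ran from -0.0431 to 0.00492 for Abhd5, -0.215 to 0.378 for Angptl4, -0.0345 to 0.141 for C5ar1, -0.00345 to 0.162 for Cyp2d9, -0.038 to 0.114 for Des, -0.171 to 0.207 for G0s2, -0.0288 to 0.13 for Hsd17b13 and -0.127 to 0.092 for Lyz2. They ran from -0.0885 to 0.345 for Marco, -0.337 to 0.0393 for Mpo, -0.0812 to 0.0698 for Mylpf, -0.00714 to 0.145 for Oasl2, -0.0706 to 0.014 for Psmb2, -0.0254 to 0.125 for Retnlg, -0.0599 to 0.196 for S100a8 and -0.00787 to 0.128 for Usp18. Of 319 list medians under settings other than leaving out a liver, 3 moved by more than 1 SD of the list mean between livers. This limit differs from the 1.5 times used for livers left out. With the 16 livers alone the medians could not move. The 3 were those of exocrine pancreas markers (-0.13), AhR targets (-0.0819) and keratins (0.364), each among genes with a signal over 20.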
